A study of Mus musculus with 3 samples.

Results

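Pi16-positive adventitial fibroblasts are fibroblasts that carry transcripts of Pi16, the gene of peptidase inhibitor 16. They were taken from single-cell counts of whole mouse skin by a fixed set of count thresholds. A barcode needed at least 200 detected genes, at most 20% of its counts from mitochondrially encoded genes, at least 10 summed counts of the collagen genes Col1a1, Col1a2 and Col3a1, at least 2 counts of Dcn and at least 1 count of Pi16. It also had to hold 0 counts of Ptprc, the pan-leukocyte gene, and less than 5% of its counts from Krt1, Krt10 and Krt14. This left 567 of 20728 barcodes, and 232 barcodes that met every threshold but had 0 counts of Pi16 are called Pi16-negative fibroblasts. The cells were thus chosen by their measured counts of Pi16, Dcn, the collagens, Ptprc and the keratins, and the levels of these genes are given only as a description.

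In mouse tissues, fibroblasts with Pi16 and Dpp4 line the outer, adventitial coat of blood vessels and the fascial layers below the dermis, and they are regarded as a reserve from which other fibroblast types can form. They make little fibrillar matrix for a fibroblast, and are known for genes of hyaluronan synthesis, for elastic-fibre proteins and for secreted chemokines. Hyaluronan is a long sugar polymer built at the cell surface by the Has synthases from activated sugars, which enzymes such as Ugdh and Gfpt2 supply.

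The series holds 3 libraries of dissociated whole skin from 9-week-old C57BL/6 mice, 1 library per group. The groups were irradiated skin given vitamin D (UV plus vitamin D), irradiated skin given saline (UV) and unirradiated skin given saline (control). The title of the series names the radiation as UVB, and it names photoaging, inflammation and protection by vitamin D as the subject. The dose, route and timing of either treatment and the number of mice are not given in the sources used here. The gate held 151 barcodes of UV plus vitamin D skin, 273 of UV skin and 143 of control skin. With 1 library per group no difference was tested, each comparison describes these libraries, and treatment cannot be told apart from library or mouse. Intervals in square brackets are exact 95% intervals unless named otherwise, and they cover counting error only.

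The Pi16-positive barcodes were shallower than most of their libraries. Their median total was 5072 counts in UV plus vitamin D skin, 6162 in UV skin and 4724 in control skin, against library medians of 9301, 7566 and 6822.5 counts in the same order. Their summed counts were 911918 in UV plus vitamin D skin, 1897088 in UV skin and 793515 in control skin, so low genes are measured best in the UV library. A single annotated rRNA gene took 13.4%, 14.5% and 18.6% of these counts in UV plus vitamin D, UV and control skin. Some barcode sequences recurred between libraries, 37 between UV plus vitamin D and UV, 66 between UV plus vitamin D and control, and 55 between UV and control, but 0 of the Pi16-positive barcodes were shared by any pair.

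The marker genes bore out the fibroblast and adventitial label. A list of 18 adventitial markers other than Pi16, among them Dpp4, Cd34, Ly6a, Cd55 and Mfap5, summed to 18772 CPM (counts scaled to a total of 1000000 over all genes of a class) in the Pi16-positive fibroblasts of UV plus vitamin D skin, 18036 CPM in UV skin and 17469 CPM in control skin. In Pi16-negative fibroblasts of the same skins the sum was 6688, 6913 and 5843 CPM, and in keratinocyte-type barcodes 268, 273 and 364 CPM. A list of 7 general fibroblast markers, among them Pdgfra and Pdgfrb, summed to 3904, 6067 and 4157 CPM in Pi16-positive fibroblasts. That was less than the 5076, 7159 and 5508 CPM of Pi16-negative fibroblasts, and more than the 6.53, 19.7 and 6.89 CPM of keratinocyte-type barcodes. With every barcode thinned to 2800 counts, a depth all kept barcodes reached, at least 6 of 12 of these markers were found together in 98.0% [94.3, 99.6] of Pi16-positive fibroblasts in UV plus vitamin D skin, 94.1% [90.7, 96.6] in UV skin and 96.5% [92.0, 98.9] in control skin. Among Pi16-negative fibroblasts the shares were 57.1% [34.0, 78.2], 41.2% [33.7, 49.0] and 48.8% [32.9, 64.9]. The Pi16-negative class is therefore not free of adventitial genes.

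Transcripts of other skin cells were measured beside them. In the Pi16-positive fibroblasts 10 keratinocyte markers summed to 14762 CPM in UV plus vitamin D skin, 8514 CPM in UV skin and 13796 CPM in control skin, against 67075, 65470 and 57735 CPM in keratinocyte-type barcodes. Barcodes with at least 1% of their counts from these markers made up 17.9% of the Pi16-positive fibroblasts in UV plus vitamin D skin, 7.69% in UV skin and 15.4% in control skin. Immune markers summed to 86.6, 313 and 263 CPM in UV plus vitamin D, UV and control skin, with Coro1a at 0 in every library. Melanocyte markers, 5 in number, summed to 12.1, 87.5 and 15.1 CPM in the same order and were thus highest in UV skin. The 6 vessel markers summed to 4.39, 12.7 and 3.78 CPM with Egfl7 at 0 in every library, the 7 mural markers to 13.2, 22.7 and 15.1 CPM with Rgs5, Higd1b and Myh11 at 0, and the 5 Schwann cell markers to 50.4, 23.7 and 35.3 CPM with Sox10 at 0. Mesothelial markers were found in UV skin alone, at 27.4 CPM, with Upk3b and Lrrn4 at 0, and adipocyte and muscle markers summed to at most 7.68 CPM. The part of these other cells in the results was not tested, beyond the keratinocyte filter given below and the leaving out of members rich in other-lineage markers.

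Pi16 itself was far above the level outside the gate. It stood at 3096 CPM in the Pi16-positive fibroblasts of UV plus vitamin D skin, 2204 CPM in UV skin and 2532 CPM in control skin, and at 2.18, 2.76 and 0.856 CPM in keratinocyte-type barcodes of the same libraries. Among those deeper keratinocyte-type barcodes, with medians of 9782, 10083 and 7115 counts, 1.51%, 2.92% and 0.731% held a Pi16 count, which is the background for a threshold of 1 count. Barcodes just inside that threshold were few: exactly 1 count of Pi16 was found in 3 members from UV plus vitamin D skin, 23 from UV skin and 6 from control skin, and 3 or more in 141, 232 and 131. Over all libraries the 32 members with 1 count of Pi16 had Dpp4 at 145 CPM and Ugdh at 1126 CPM, the 504 members with 3 or more had 604 and 3457 CPM, and the 232 fibroblasts with 0 counts had 57.7 and 644 CPM. The members at the edge of the threshold thus lay between the members with 3 or more counts and the Pi16-negative class in both genes. Gfpt2, Mfap5, Ccl7 and Has1 were placed likewise. The matrix gene Lum was not: it was at 3218 CPM with 1 count of Pi16, 828 CPM with 3 or more and 2734 CPM with 0. In Lum the edge members thus lay beyond the Pi16-negative class. In Dpp4, Ugdh, Gfpt2, Mfap5, Ccl7 and Has1 they were also closer to that class than to the members with 3 or more counts. Of Pi16-positive barcodes outside the gate, 19 in UV plus vitamin D skin, 12 in UV skin and 18 in control skin missed it by the collagen threshold alone.

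More Pi16-positive fibroblasts were recovered from UV skin than from the other skins, but there they formed a smaller share of the fibroblasts. They were 2.44% [2.07, 2.85] of all kept barcodes in UV plus vitamin D skin, 5.01% [4.44, 5.62] in UV skin and 1.58% [1.33, 1.85] in control skin. Of the gated fibroblasts they were 87.8% [81.9, 92.3] in UV plus vitamin D skin, 61.6% [56.9, 66.2] in UV skin and 77.7% [71.0, 83.5] in control skin. The Pi16-negative fibroblasts moved further between libraries, with 0.339% of all barcodes in UV plus vitamin D skin, 3.12% in UV skin and 0.452% in control skin. As ratios with counting intervals on the log scale, the Pi16-positive share of all barcodes was 3.18 [2.60, 3.88] in UV over control and the Pi16-negative share was 6.91 [4.92, 9.70]. For UV plus vitamin D over UV the ratios were 0.486 [0.400, 0.591] for Pi16-positive and 0.109 [0.0691, 0.171] for Pi16-negative fibroblasts.

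Depth and the gate touch these shares. After thinning to 2800 counts, the share of gated fibroblasts was 83.9% in UV plus vitamin D skin, 58.3% in UV skin and 73.9% in control skin, in the same order as at full depth. The share of all barcodes was then 1.86%, 4.40% and 1.31%. The collagen sum that the gate reads had a median of 37 counts per member in UV plus vitamin D skin, 89 in UV skin and 37 in control skin, so a collagen threshold falls closer to the members of the first and last library. A share of all barcodes also moves with the other cells recovered from each skin: Ptprc-positive barcodes numbered 95 of 6199 in UV plus vitamin D skin, 615 of 5451 in UV skin and 129 of 9078 in control skin. The part of tissue dissociation in these shares was not tested.

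**Figure D1:**
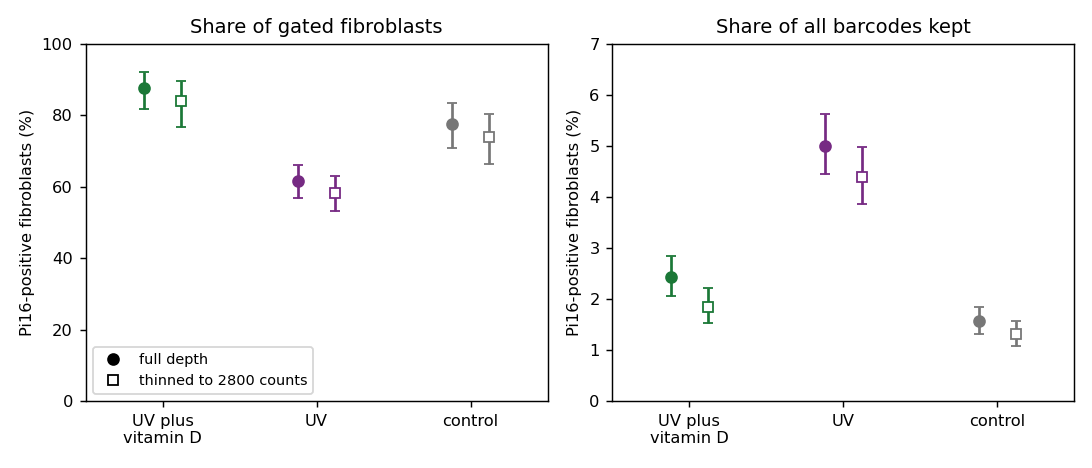
Percent of gated fibroblasts (left) and of all kept barcodes (right) that were Pi16-positive in each library, with exact 95% intervals for counting error; filled circles are full depth and open squares are barcodes thinned to 2800 counts. The UV library is lowest on the left, at 61.6%, and highest on the right, at 5.01%.

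Within each skin, Pi16-positive fibroblasts differed from Pi16-negative fibroblasts by more transcripts of some adventitial, hyaluronan and chemokine genes. Matrix genes were mixed: of 51 measured, 8 were at least 2-fold higher and 2, Col15a1 and Bgn, at least 2-fold lower in every library. Because Pi16 was read from the same cells, these differences describe what travels with Pi16 and were not tested. Of 4010 genes with at least 20 counts over both classes in every library, 120 (2.99%) were at least 2-fold higher and 21 (0.524%) at least 2-fold lower in Pi16-positive cells in each of the 3 libraries, on a log2 scale of CPM plus 10. Fold values given with genes are ratios of CPM without that addition.

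Among the surface and secreted genes, Anxa3, a calcium-dependent membrane-binding protein, was at 775, 595 and 713 CPM in the Pi16-positive fibroblasts of UV plus vitamin D, UV and control skin, against 20.1, 27.7 and 33.9 CPM in the Pi16-negative ones. Dpp4, a cell-surface peptidase, was at 510, 566 and 532 CPM in Pi16-positive cells of UV plus vitamin D, UV and control skin, against 15.1, 64.1 and 56.4 CPM in Pi16-negative cells, which makes it 33.9-fold [11.5, 165], 8.83-fold [7.10, 11.1] and 9.42-fold [5.65, 17.0] higher. Both genes kept nearly the same level in the Pi16-positive cells of the 3 skins. Mfap5, a microfibril protein of elastic fibres, was at 1315, 1104 and 1340 CPM, against 201, 94.0 and 45.2 CPM in Pi16-negative cells of the same skins. Tnfsf9, the ligand of the T-cell receptor 4-1BB, was at 1353, 1615 and 1182 CPM, against 90.4, 138 and 181 CPM. Smaller amounts were found of Akr1c18, a progesterone-inactivating enzyme, with 254, 213 and 213 CPM against 0, 0.728 and 7.53 CPM. Of the 31 measured genes of a longer adventitial list, 16 were at least 2-fold higher in Pi16-positive cells in every library and 0 were lower.

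Hyaluronan genes formed the next group, with 4 of 11 measured genes at least 2-fold higher in every library and 0 lower. Ugdh, which makes UDP-glucuronate, was at 3749 CPM in Pi16-positive cells of UV plus vitamin D skin, 2720 in UV skin and 3520 in control skin, against 1602, 541 and 459 CPM in Pi16-negative cells. Gfpt2, which starts the pathway to UDP-N-acetylglucosamine, was at 3113, 2324 and 3052 CPM, against 1451, 435 and 455 CPM in Pi16-negative cells of the same skins. The hyaluronan synthase Has1 was at 2149, 2399 and 2024 CPM, against 773, 489 and 248 CPM. The Pi16-positive to Pi16-negative ratio of Ugdh was 2.34 [2.09, 2.63] in UV plus vitamin D skin, 5.03 [4.66, 5.44] in UV skin and 7.67 [6.40, 9.27] in control skin. The low ratio in UV plus vitamin D skin came with a high level in its Pi16-negative class, which was only 21 barcodes.

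Of 23 measured genes of the chemokine and cytokine list, 5 were at least 2-fold higher in Pi16-positive cells in every library and 0 were lower. They were Cxcl2, Cxcl13, Csf2, Ptgs2 and Has1. Has1 was also counted among the hyaluronan genes above, and neither Has1 nor Ptgs2 encodes a chemokine or cytokine. Cxcl13, an attractant of B cells, was at 466 CPM in Pi16-positive cells of UV plus vitamin D skin, 1058 in UV skin and 418 in control skin, against 20.1, 56.1 and 30.1 CPM in Pi16-negative cells. Csf2, which encodes the growth factor GM-CSF, was at 188, 593 and 108 CPM, against 0, 75.03 and 0 CPM in Pi16-negative cells of the same skins. Set against a floor of 3 counts in the library, Csf2 was at least 12.4-fold higher in Pi16-positive cells of UV plus vitamin D skin and at least 9.60-fold higher in those of control skin. These floors cover counting only, and the Pi16-negative classes at 0 were 21 and 41 barcodes. Few members carried Csf2, with an upper quartile of 0 per barcode in every skin. Without its highest barcode it was at 143 CPM in UV plus vitamin D and 62.0 CPM in control skin. Ccl7, an attractant of monocytes, did not follow this pattern in every skin: it was at 15798, 16015 and 10968 CPM in Pi16-positive cells, against 14841, 4437 and 3902 CPM, so the classes lay 1.06-fold apart in UV plus vitamin D skin and 3.61-fold and 2.81-fold apart in UV and control skin.

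Genes lower in Pi16-positive cells included some of the extracellular matrix and its turnover. Bgn, the small proteoglycan biglycan, was at 144 CPM in Pi16-positive cells of UV plus vitamin D skin, 535 in UV skin and 116 in control skin, against 663, 2274 and 963 CPM in Pi16-negative cells. Mmp3, a matrix metalloproteinase, was at 203, 438 and 185 CPM, against 1145, 1397 and 726 CPM in the same skins. Cthrc1, a secreted protein of matrix-producing fibroblasts, was at 16.4, 121 and 73.1 CPM, against 176, 704 and 241 CPM. Cav1, the coat protein of caveolae, was at 24.1, 125 and 21.4 CPM, against 115, 611 and 94.1 CPM. Enpp2, Crispld2, Sparcl1, Olfml3 and Fkbp10 were also among the lowest genes, with between 3.18-fold (Crispld2) and 5.31-fold (Enpp2) less in Pi16-positive cells of UV skin, the best-filled library. Most of these genes are on no matrix list used here, and the matrix list itself was mixed, with 8 of 51 measured genes at least 2-fold higher and 2 lower in every library.

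**Figure D2:**
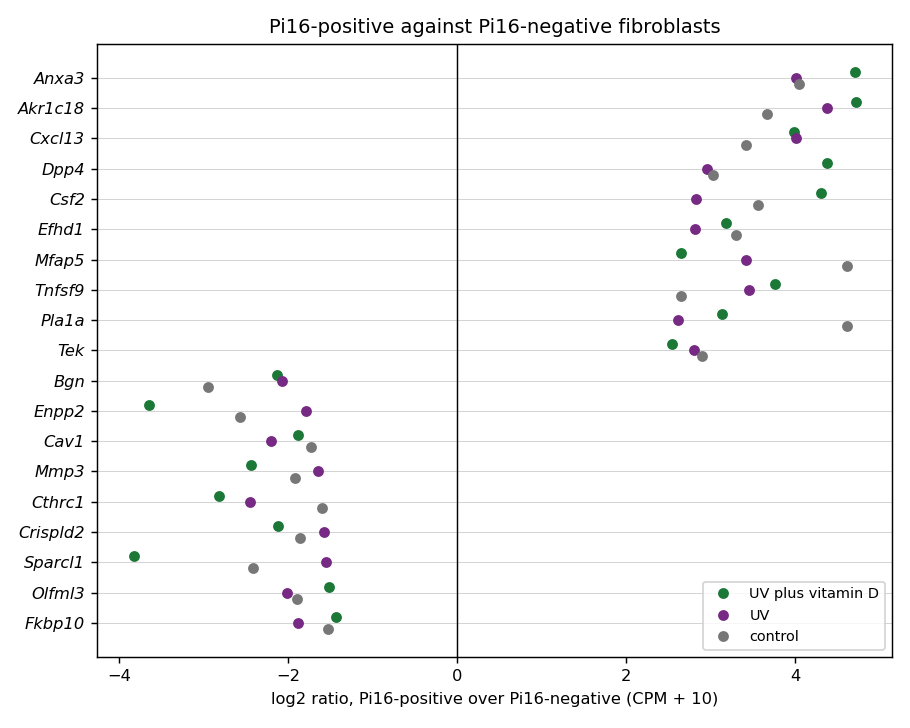
Log2 ratio of CPM plus 10 in Pi16-positive over Pi16-negative fibroblasts (horizontal axis) for the named genes highest and lowest in this ratio, with 1 point per library. All points of the upper genes lie right of 0 and all points of the lower genes left of 0, which the choice of genes fixes; the spread of the points within a gene shows how far the 3 skins differ.

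The Pi16-positive fibroblasts were not uniform within a library. With depth held at 2800 counts per barcode, the ratio of variance to mean over barcodes had a median of 1.56 in UV plus vitamin D skin, 1.62 in UV skin and 1.53 in control skin over 459 genes. The chemokine Ccl2, an attractant of monocytes, had ratios of 51.9, 47.3 and 56.9 in UV plus vitamin D, UV and control skin, and Cxcl1, an attractant of neutrophils, had 48.3, 40.4 and 39.6. Sparc, a collagen-binding matrix protein, followed with 35.4, 51.3 and 58.8, Ccl7 with 30.2, 29.8 and 26.1, and the cytokine Il6 with 20.1, 18.9 and 13.8. The keratinocyte genes Sprr1a (60.6, 32.7 and 46.8) and Krtdap (33.9, 36.7 and 35.7) had ratios in the same range at much lower means. Mean counts per barcode were 107, 81.6 and 77.2 for Ccl2, 11.8, 6.25 and 9.01 for Sprr1a, and 10.3, 5.80 and 7.90 for Krtdap. At equal relative spread this ratio rises with the mean, so it does not rank genes by relative unevenness. The keratinocyte markers of single barcodes differed as given above.

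Single barcodes show the ranges. Per 10000 counts of a barcode, Ccl7 had a median of 155 in UV plus vitamin D skin (lowest 0, highest 763), 154 in UV skin (lowest 0, highest 711) and 105 in control skin (lowest 0, highest 549). Ugdh had medians of 40.8, 26.5 and 39.7, and its quartiles overlapped, reaching from 18.9 to 63.7 in UV plus vitamin D skin, from 9.97 to 43.9 in UV skin and from 23.1 to 54.1 in control skin. Hmox1, the inducible heme oxygenase, had medians of 36.4, 0.769 and 24.5. Its upper quartile in UV skin, 5.81, lay close to the lower quartiles of 5.64 in UV plus vitamin D skin and 6.47 in control skin. Lum, the collagen-binding proteoglycan lumican, was highest in UV skin, with medians of 2.66, 8.35 and 1.37.

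**Figure D3:**
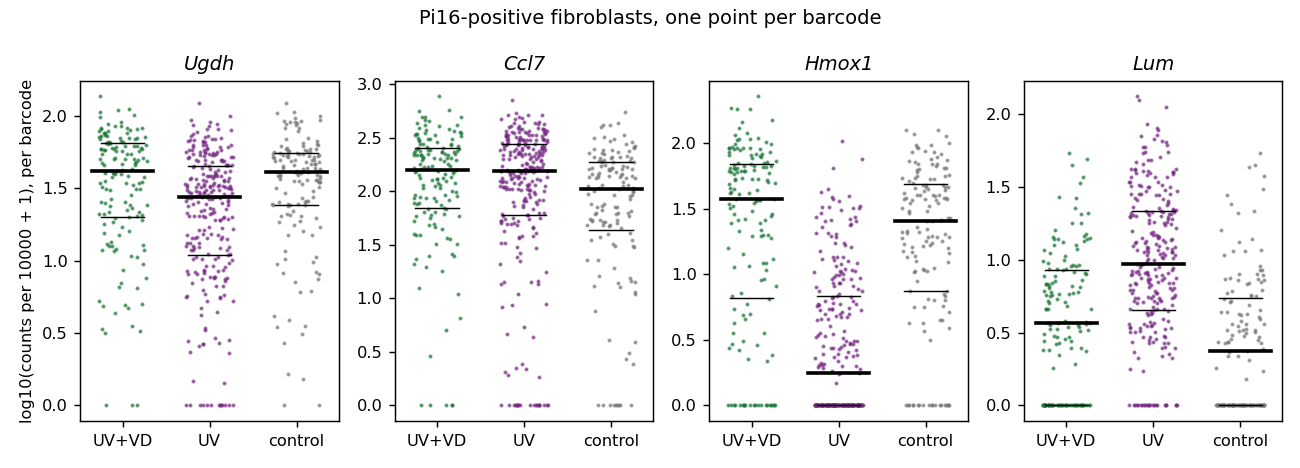
Ugdh, Ccl7, Hmox1 and Lum in every Pi16-positive barcode of UV plus vitamin D, UV and control skin, as log10 of counts per 10000 plus 1 (vertical axis); each dot is a barcode and the lines mark the median and the quartiles. Ccl7 and Ugdh overlap widely between libraries, while most UV barcodes lie low for Hmox1 (median 0.769 per 10000) and high for Lum (median 8.35 per 10000).

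The comparison of UV with control skin asks how Pi16-positive fibroblasts of irradiated skin differ from those of unirradiated skin. Matrix, interferon-stimulated and several cytokine genes were higher in UV skin, while Hmox1, Gclm and Txnrd1, genes of heme breakdown and antioxidant defence, were lower. Of 7129 genes with at least 20 counts over both libraries, 248 (3.48%) were at least 2-fold higher and 73 (1.02%) at least 2-fold lower in UV skin, and the median log2 ratio of all of them was 0.10.

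Of 32 measured adventitial genes, 0 were higher and 1, Procr, was lower by 2-fold or more in UV skin, and their median log2 ratio was 0.06. With shares of 3.48% higher and 1.02% lower over all genes, such counts are near the background and are no result about the list. Dpp4 was at 566 CPM in UV and 532 CPM in control skin, and Fn1, which encodes fibronectin, at 2109 and 2038 CPM. Procr, the endothelial protein C receptor and a surface marker of these cells, was at 1163 CPM in UV and 2347 CPM in control skin, 2.02-fold lower [1.90, 2.15]. Among 14 measured hyaluronan genes 0 passed 2-fold in either direction, which is near the background as well. Ugdh was at 2720 CPM in UV and 3520 CPM in control skin (1.29-fold lower [1.24, 1.36]) and Has1 at 2399 and 2024 CPM. Ugp2, the enzyme that makes UDP-glucose for Ugdh, was 1.78-fold higher [1.49, 2.14] in UV skin, and the hyaluronan receptor Cd44 1.74-fold higher [1.48, 2.06].

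Matrix genes were among those higher in UV skin. Of 56 measured matrix genes, 12 lay at least 2-fold higher in UV skin and 0 lower, with a list median of 0.59 on the log2 scale. Lum was at 1658 CPM in UV skin and 434 CPM in control skin, 3.82-fold higher [3.42, 4.29], and 81.0% of UV barcodes held it after thinning, against 45.5% of control barcodes. Bgn was at 535 CPM in UV and 116 CPM in control skin, 4.61-fold higher [3.73, 5.78]. Pcolce, which enhances procollagen processing, was at 1818 CPM in UV and 808 CPM in control skin, 2.25-fold higher [2.07, 2.45]. These genes were widely spread over the cells, with at most 6.01% of the UV counts of any of them in 1 barcode. Prg4, the joint and tissue lubricant lubricin, was at 264 CPM in UV and 25.2 CPM in control skin, 10.5-fold higher [6.70, 17.3], from 500 and 20 counts. Eln, the elastin gene, was 3.33-fold higher [2.29, 5.01] and Thbs1, which encodes the matricellular protein thrombospondin 1, 5.79-fold higher [3.59, 9.92]. Tnc, counted among the 12, had 87 counts in UV and 0 in control skin, but 73.6% of the UV counts lay in 1 barcode. Without the highest barcode of each gene the count was 11 of 56, and 10 of 55 with at least 3 counts of Pi16 required.

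Genes of matrix turnover and growth factor binding went the same way in part. Among 27 measured protease and inhibitor genes 6 were higher in UV skin and 1 lower, and 3 of 27 were higher with at least 2 counts of Pi16 required. Timp1, an inhibitor of matrix metalloproteinases, was at 155 CPM in UV and 34.0 CPM in control skin, 4.55-fold higher [3.07, 7.03], Mmp3 was 2.36-fold higher [1.98, 2.84] and Ctsk, the collagen-cleaving cathepsin K, 2.15-fold higher [1.92, 2.41]. Of 41 measured genes of growth factor binding, Wnt and TGF-beta signalling 7 were higher and 0 lower. Igfbp7, an insulin-like growth factor binding protein, was at 265 CPM in UV and 42.8 CPM in control skin, 6.19-fold higher [4.37, 9.04], and Igf1, a growth factor of mesenchymal cells, was 2.27-fold higher [1.71, 3.05]. Serpina3n, a serine protease inhibitor, was at 216 CPM in UV and 39.1 CPM in control skin, 5.52-fold higher [3.83, 8.23]. Cav1 was at 125 CPM in UV and 21.4 CPM in control skin, 5.83-fold higher [3.57, 10.2].

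Several of these genes, Lum, Bgn, Igfbp7, Serpina3n and Cav1, were also lower in Pi16-positive than in Pi16-negative fibroblasts of every skin, and UV skin held more members at the low edge of Pi16 detection. A cutoff of at least 3 counts of Pi16 was added after the data were seen. With it the log2 ratio of UV over control was 1.70 for Lum and 1.79 for Serpina3n, against 1.91 and 2.20 with 1 count required. It was 2.46 for Bgn, 2.52 for Igfbp7 and 2.33 for Cav1, against 2.11, 2.38 and 2.10. The part of the members low in Pi16 in these values was not tested further.

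Cytokine genes were split between genes higher in UV skin, genes near their control level and genes lower by less than 2-fold. Among the last were Ccl11, given below, and Cxcl1. With depth held at 2800 counts per barcode, Cxcl1 had a mean of 43.3 counts in UV and 54.7 in control skin. Of 28 measured genes of the chemokine and cytokine list, 11 were at least 2-fold higher in UV skin and 0 lower, and 9 of 28 without the highest barcode of each gene. That list also holds some genes that are not cytokines. The abundant chemokine Ccl2 was at 26940 CPM in UV and 24826 CPM in control skin, 1.09-fold apart, and Ccl7 was at 16015 and 10968 CPM, 1.46-fold higher [1.43, 1.496]. Csf2 was at 593 CPM in UV and 108 CPM in control skin, 5.47-fold higher [4.39, 6.90], with 43.0% of the control counts in 1 barcode. Cxcl13 was 2.53-fold higher [2.25, 2.85], Cxcl12, which retains leukocytes and stem cells, 3.80-fold higher [2.65, 5.63], and the adhesion molecule gene Vcam1 2.64-fold higher [2.05, 3.45]. The neutrophil chemokine gene Cxcl5 had 358 counts in UV and 0 in control skin, at least 49.9-fold higher against a floor of 3 counts in control skin, with 34.9% of the UV counts in 1 barcode. Saa3, an acute-phase gene among the 11, had 95.7% of its 117 UV counts in 1 barcode. Ccl8, a monocyte attractant, was at 282 CPM in UV and 61.8 CPM in control skin, while Ptprc-positive barcodes held 2925 and 5171 CPM of it, and the part of such cells in the fibroblast value was not tested.

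Il1rl1, the receptor of the alarm cytokine interleukin 33, was at 462 CPM in UV skin and 105 CPM in control skin, 4.41-fold higher [3.52, 5.598]. It was found in 23.8% of UV and 11.9% of control members after thinning, and UV plus vitamin D skin was higher still, at 623 CPM and 35.8% of members. In Pi16-negative fibroblasts it was at 20.1 CPM in UV plus vitamin D skin, 261 CPM in UV skin and 3.76 CPM in control skin. Ptprc-positive barcodes held 2.13, 3.21 and 1.74 CPM in the same order, below the fibroblasts of every skin. With Tnfaip3, a brake on NF-kB signalling that was at 362 CPM in UV and 174 CPM in control skin, it was 1 of 2 genes at least 2-fold higher among 26 genes of NF-kB feedback and receptors, of which 0 were lower. The inhibitor gene Nfkbia stood at 2208 and 2253 CPM in UV and control skin.

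Of 40 measured interferon-stimulated genes, 14 were at least 2-fold higher in UV skin and 0 lower, with a median log2 ratio of 0.68. Ifit1, a sensor of foreign RNA ends, was at 198 CPM in UV and 18.9 CPM in control skin, 10.5-fold higher [6.26, 18.9]. Rsad2, the antiviral enzyme viperin, was 6.44-fold higher [3.68, 12.3], Irf7, a transcription factor of the interferon response, 2.84-fold higher [1.77, 4.80] and the ubiquitin-like modifier Isg15 2.36-fold higher [1.51, 3.86]. These transcripts sat in a minority of cells: after thinning, Ifit1 was found in 7.33% of UV and 3.50% of control members, and Irf7 in 15.4% and 8.39%. The count was 14 of 40 also without the highest barcode of each gene, and 9 of 28 after thinning. Over all measured genes 266 of 7129 and 277 of 4179 were higher under these 2 settings. In Ptprc-positive barcodes Ifit1 and Rsad2 ran the other way, at 112 and 425 CPM in UV skin against 1319 and 3662 CPM in control skin.

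The 3 genes of oxidative and heme stress that were lower in UV skin were Hmox1, Gclm and Txnrd1, out of 26 measured, of which 0 were higher. Hmox1, which degrades heme, was at 512 CPM in UV skin and 2822 CPM in control skin, 5.51-fold lower [5.11, 5.94], and was found in 39.9% of UV and 83.9% of control members after thinning. Gclm, the regulatory subunit of the enzyme that limits glutathione synthesis, was at 33.7 CPM in UV and 99.6 CPM in control skin, 2.95-fold lower [2.10, 4.17]. Txnrd1, thioredoxin reductase, was at 196 CPM in UV and 480 CPM in control skin, 2.45-fold lower [2.12, 2.83]. Hmox1 was lower in Pi16-negative fibroblasts too, at 113 CPM in UV and 192 CPM in control skin, and in Ptprc-positive barcodes, at 1981 and 8155 CPM. Keratinocyte-type barcodes held 32.9 and 38.6 CPM of Hmox1, below the fibroblasts. Leaving out the members with at least 1% of counts from keratinocyte markers, a filter added after the data were seen, gave a log2 ratio of -2.65 for Hmox1 against -2.44 with them.

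Other genes lower in UV skin were single members of other groups. Sult1e1, the estrogen sulfotransferase, was at 24.8 CPM in UV skin and 339 CPM in control skin, 13.7-fold lower [10.01, 19.1], from 47 and 269 counts. C7, a complement component, was at 151 CPM in UV and 505 CPM in control skin, 3.35-fold lower [2.87, 3.91]. Ccl11, the eosinophil attractant eotaxin, was at 716 and 1410 CPM, 1.97-fold lower [1.82, 2.13] and so just inside 2-fold.

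Some of the remaining lists held few genes, or genes found in few cells. Of 16 myofibroblast genes 4 were higher in UV skin and 0 lower, and 2 were higher without the highest barcode of each gene, 1 of 13 with at least 2 counts of Pi16 and 0 of 8 after thinning. Few barcodes carried them: 87.2% of the 39 Acta2 counts and 69.6% of the 23 Lrrc15 counts came from 1 barcode. Of 16 cell cycle genes 5 were higher and 1, Ccnd2, lower, with 1 higher without the highest barcode and 0 of 7 after thinning. Top2a had 32 counts in UV and 0 in control skin. Genes of other fibroblast subsets were higher for 8 and lower for 2 of 23, among them Mgp, an inhibitor of calcification, at 162 CPM in UV and 10.1 CPM in control skin, where 87.5% of 8 counts lay in 1 barcode. Immediate early and heat shock genes were higher for 2 (Egr1 and Nr4a2) and lower for 0 of 40. With shares of 3.48% higher and 1.02% lower over all genes, these counts are near the background and are no result about the list. Cdkn1a, a gene of the p53 response that encodes p21, a brake on cell division, stood at 606 CPM in UV and 803 CPM in control skin. Complement genes were higher for 2 (C2 and C4b) and lower for 1 (C7) of 13.

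Several genes in the lower group of UV skin are ones that keratinocytes make. Serpinb2, a protease inhibitor of the upper epidermis, was at 1231 CPM in the Pi16-positive fibroblasts of UV skin and 3548 CPM in those of control skin, while keratinocyte-type barcodes held 11136 and 15304 CPM. Dsc3, a desmosomal cadherin, was at 68.5 and 198 CPM in UV and control skin, with 569 and 844 CPM in keratinocyte-type barcodes, and Pof1b and Ifi202b were placed likewise. Without the members that had at least 1% of counts from keratinocyte markers, the log2 ratio of UV over control was -1.08 for Serpinb2 and -0.97 for Dsc3, against -1.52 and -1.40 with them. The summed keratinocyte markers of the members were lower in UV skin as well (8514 against 13796 CPM), and their part in these values was not tested further.

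**Figure D4:**
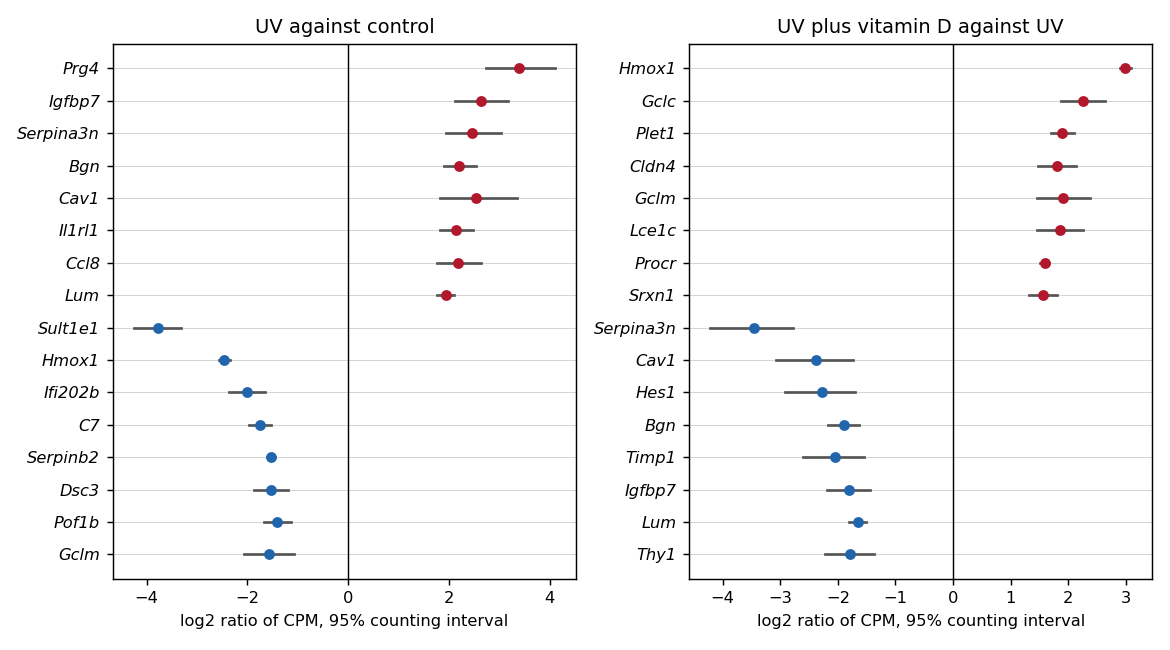
Log2 ratio of CPM with its exact 95% counting interval (horizontal axis) for the 8 highest and 8 lowest genes of UV over control (left) and of UV plus vitamin D over UV (right) in Pi16-positive fibroblasts. Both comparisons use the same UV library, so a value that is extreme there moves both panels; Hmox1 lies left of 0 in the left panel (5.51-fold lower) and right of 0 in the right panel (7.96-fold higher).

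The comparison of UV plus vitamin D with UV skin asks how Pi16-positive fibroblasts of irradiated skin differ with vitamin D. It shares the UV library with the comparison above, so an opposite direction in both is not independent evidence, and values of all 3 skins are given side by side. Of 7292 measured genes, 109 (1.49%) were at least 2-fold higher and 177 (2.43%) at least 2-fold lower in UV plus vitamin D skin than in UV skin, with a median log2 ratio of -0.04.

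Genes of the NRF2 and heme response were higher in UV plus vitamin D skin, for 5 of 26 measured, and 0 were lower. Hmox1 was at 4076 CPM in UV plus vitamin D skin and 512 CPM in UV skin, 7.96-fold higher [7.41, 8.55], with control skin at 2822 CPM. Gclc, the catalytic subunit of the glutathione-synthesis enzyme, was at 213 CPM in UV plus vitamin D skin and 44.8 CPM in UV skin, 4.75-fold higher [3.66, 6.20], with 83.2 CPM in control skin. Gclm was at 127 and 33.7 CPM, 3.77-fold higher [2.76, 5.20], Srxn1, which repairs oxidised peroxiredoxins, at 377 and 128 CPM, 2.96-fold higher [2.501, 3.50], and Txnrd1 at 485 and 196 CPM, 2.47-fold higher [2.15, 2.84]. Gclc was the only gene of this list at least 2-fold higher in UV plus vitamin D skin than in control skin, 2.56-fold [1.93, 3.44]. The factor gene Nfe2l2 was at 819, 530 and 614 CPM in UV plus vitamin D, UV and control skin, and the metallothionein gene Mt1 at 14079, 10689 and 10408 CPM. Ptprc-positive barcodes showed the same order for Hmox1, with 8379, 1981 and 8155 CPM, and Pi16-negative fibroblasts held 964, 113 and 192 CPM. Without the members that had at least 1% keratinocyte markers the log2 ratio of Hmox1 in UV plus vitamin D over UV was 3.19, against 2.97 with them.

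Procr was at 3497 CPM in UV plus vitamin D skin, 1163 CPM in UV skin and 2347 CPM in control skin, 3.01-fold higher [2.85, 3.18] in UV plus vitamin D than in UV skin. It was 1 of 32 adventitial genes at least 2-fold higher, and 0 were lower. With shares of 1.49% higher and 2.43% lower over all genes, these counts are near the background and are no result about the list. Sult1e1 was at 185, 24.8 and 339 CPM in UV plus vitamin D, UV and control skin, 7.48-fold higher [5.39, 10.6] in UV plus vitamin D than in UV skin. C7 was at 434, 151 and 505 CPM, 2.88-fold higher [2.47, 3.37], and Ccl11 at 1662, 716 and 1410 CPM, 2.32-fold higher [2.16, 2.501]. In these genes the UV library stood below both other libraries.

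Matrix genes lay lower in UV plus vitamin D than in UV skin, for 10 of 56 measured, with 0 higher and a median log2 ratio of -0.56. Lum was at 525 CPM in UV plus vitamin D skin and 1658 CPM in UV skin, 3.16-fold lower [2.87, 3.48], with 434 CPM in control skin. Bgn was at 144 and 535 CPM, 3.72-fold lower [3.10, 4.503], with 116 CPM in control skin, and Pcolce at 850 and 1818 CPM, 2.14-fold lower [1.98, 2.31], with 808 CPM in control skin. The count was 8 of 55 with at least 3 counts of Pi16 required and 8 of 56 without the members that had at least 1% keratinocyte markers. It was 4 of 56, with a median log2 ratio of -0.37, when at least 30 collagen and 5 Dcn counts were required. Prg4 stayed apart from control skin, at 109 CPM in UV plus vitamin D skin, 264 CPM in UV skin and 25.2 CPM in control skin, although 35.4% of its counts in UV plus vitamin D skin came from 1 barcode.

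Serpina3n was at 19.7 CPM in UV plus vitamin D skin and 216 CPM in UV skin, 10.9-fold lower [6.82, 18.6], with 39.1 CPM in control skin. Hes1, a transcriptional repressor downstream of Notch, was at 28.5 and 139 CPM, 4.86-fold lower [3.24, 7.58], with 60.5 CPM in control skin. Timp1 was at 37.3 and 155 CPM, 4.16-fold lower [2.91, 6.12], and Thy1, a surface glycoprotein of fibroblasts, at 59.2 and 205 CPM, 3.45-fold lower [2.59, 4.68]. Among 28 protease and inhibitor genes 6 were lower and 1, Serpinb2, was higher, and 3 of 28 were lower with at least 3 counts of Pi16 required and 3 of 26 after thinning. Of 42 growth factor binding, Wnt and TGF-beta genes 3 were lower (Igfbp7, Cyr61 and Nov) and 0 higher, and 1 of 34 was lower after thinning. Over all measured genes 184 of 4216 were lower after thinning, so the last count is near the background and is no result about the list.

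Cytokine genes again divided. Of 28 measured genes of the chemokine and cytokine list, 1 (Ccl11) was higher and 6 were lower in UV plus vitamin D than in UV skin. Csf2 was at 188 CPM in UV plus vitamin D and 593 CPM in UV skin, 3.16-fold lower [2.69, 3.74], Cxcl13 at 466 and 1058 CPM, 2.27-fold lower [2.04, 2.53], and Cxcl12 at 60.3 and 158 CPM, 2.62-fold lower [1.961, 3.56]. The most abundant chemokines were not among them, with Ccl2 at 34514 CPM in UV plus vitamin D and 26940 CPM in UV skin, Cxcl1 at 24932 and 14632 CPM, and Ccl7 at 15798 and 16015 CPM. Interferon-stimulated genes were lower for 1 (Gbp7) and higher for 0 of 41, with Ifit1 at 197 CPM in UV plus vitamin D and 198 CPM in UV skin, where 49.4% of the UV plus vitamin D counts came from 1 barcode. Rsad2 was at 103 and 105 CPM.

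Some of the genes highest in UV plus vitamin D over UV skin are keratinocyte genes. Plet1, an epithelial surface protein, was at 623 CPM in the members of UV plus vitamin D skin, 168 in UV skin and 587 in control skin, with 1922, 1055 and 1984 CPM in keratinocyte-type barcodes. Its log2 ratio of UV plus vitamin D over UV was 1.83 with all members and 0.54 without those that had at least 1% keratinocyte markers. Cldn4, a tight-junction protein, was at 1.66 and 0.96 on the same scale, and Lce1c, a protein of the cornified envelope, at 1.65 and 1.36.

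Against control skin, UV plus vitamin D skin differed in fewer genes. Of 5640 measured genes 105 (1.86%) were at least 2-fold higher and 45 (0.798%) at least 2-fold lower, with a median log2 ratio of 0.07. Interferon-stimulated genes were higher for 7 and lower for 0 of 28, with a median log2 ratio of 0.53 (4 of 19 higher with a minimum of 50 counts), and matrix genes were higher for 4 (Mfap4, Thbs1, Cilp and Prg4) and lower for 0 of 54, with a median of 0.02. Il1rl1 was 5.95-fold higher [4.72, 7.59] and Igf1 2.32-fold higher [1.71, 3.18] in UV plus vitamin D than in control skin. Atf3 and Hspa1a, genes of the acute stress response, were the 2 of 39 immediate early and heat shock genes that were lower, at 175 CPM in UV plus vitamin D and 447 CPM in control skin for Atf3 and at 72.4 and 178 CPM for Hspa1a. None of 32 adventitial, 13 hyaluronan or 25 protease genes passed 2-fold in either direction on this scale. With shares of 1.86% higher and 0.798% lower over all genes, such counts are near the background and are no result about these lists.

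**Figure D5:**
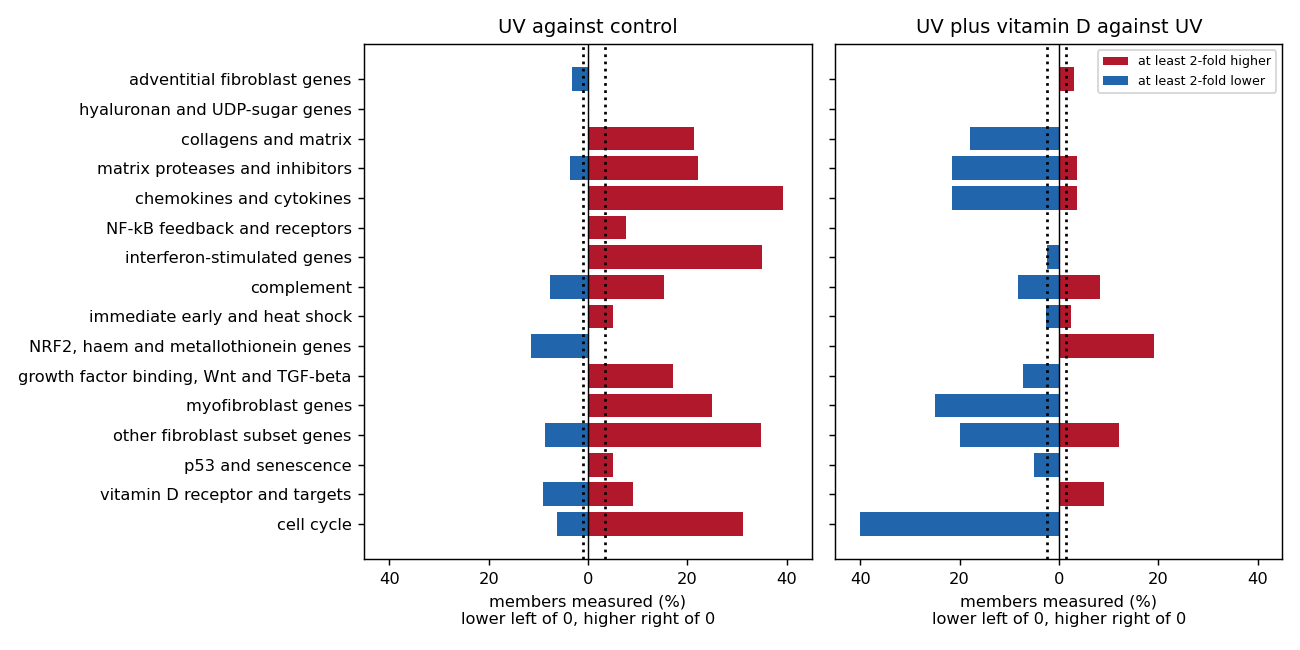
Percent of the measured genes of each list that were at least 2-fold higher (right of 0) or lower (left of 0) in Pi16-positive fibroblasts, for each comparison of libraries; dotted lines mark the share over all measured genes. For UV over control the interferon-stimulated, matrix and cytokine lists, among others, extend right of the 3.48% line. For UV plus vitamin D over UV the matrix list extends left of the 2.43% line. The cytokine, protease, other fibroblast subset (5 of 25 genes lower), myofibroblast (4 of 16 genes lower) and cell cycle (6 of 15 genes lower) lists extend further left than the matrix list. Of the myofibroblast genes lower there, Acta2, Lrrc15 and Tnc each had most of their UV counts in a single barcode.

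The vitamin D system was little represented in these cells. The receptor gene Vdr had 16 counts in the Pi16-positive fibroblasts of UV plus vitamin D skin, 14 in UV skin and 18 in control skin, or 17.5, 7.38 and 22.7 CPM. Cyp24a1, which inactivates vitamin D and is strongly induced by its receptor, had 0 counts in all libraries, which allows up to 3.29 CPM in UV plus vitamin D skin, 1.58 CPM in UV skin and 3.78 CPM in control skin. Of 11 measured genes of the receptor, its metabolism and its targets, 1 was higher (Dhcr7) and 0 were lower in UV plus vitamin D than in UV skin. Dhcr7, which draws on the vitamin D precursor to make cholesterol, was at 34.0 and 10.02 CPM in UV plus vitamin D and UV skin, 3.39-fold higher [1.86, 6.36], with 39.1 CPM in control skin and 31, 19 and 31 counts in the 3 libraries. Between UV and control skin 1 gene was higher (Thbd, the anticoagulant receptor thrombomodulin, at 269 and 129 CPM) and 1 lower (Dhcr7). Thbd was at 264 CPM in UV plus vitamin D skin.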

How the data were processed

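Skin was dissociated and libraries were made with Singleron GEXSCOPE reagents, per the labels. The authors deposited 1 table per library, which holds raw counts for each gene in each barcode. FastQC, fastp, STAR and featureCounts (no versions) and the build GRCh38 are named in the submitters' processing notes, although the gene symbols are those of mouse; no coordinates are used. The sources used here do not say if a count is a molecule or a read, and if it is a read the intervals are too narrow. The lowest deposited barcode total was 3409 in UV plus vitamin D, 3010 in UV and 2822 in control skin.

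The cells and gene lists were chosen with earlier results of these data known. From the deposited counts, sums per library and class were scaled to CPM with Python 3.11.15, numpy 2.4.6, scipy 1.17.1 and matplotlib 3.10.9. Genes with at least 20 counts over both sides were compared as log2 ratios of CPM plus 10, and 2-fold is read on that scale. Fold intervals are exact and conditional on the summed counts. Genes at 0 are set against a floor of 3 counts, and the list medians were the same with such genes at that bound. Keratinocyte-type barcodes had at least 20 counts of Krt1, Krt5, Krt10 and Krt14, fewer than 10 collagen counts and 0 of Ptprc. No doublet caller was run, so doublets may remain.

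Named genes were the 8 highest and 8 lowest log2 ratios of UV over control and UV plus vitamin D over UV, kept if the higher library held 30 or more counts and 25% or more of its members had one, with at most 25% of counts in 1 barcode and an interval beyond 1.5-fold. To these were added the 10 highest and 10 lowest for Pi16-positive over Pi16-negative, up to 4 per list, and Pi16, Dcn, Ugdh, Gfpt2 and Ccl7. Mitochondrial, ribosomal, haemoglobin, rRNA, gate and unnamed genes were left out of the ranks. Some genes the rule names are not reported here. Other list members named in the text were chosen after their values were seen. The scripts were tested on simulated counts. Alternatives were other Pi16, collagen, keratin and mitochondrial thresholds, other-lineage filters, depth, scaling, pseudocount, minimum counts, weighting and leaving out the highest barcode. A minimum of 3 Pi16 counts and the keratinocyte filter were added after the data were seen.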

Additional observations from a re-analysis of the deposited data

Results flagged for a closer look

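Mfap4, a microfibril-associated glycoprotein, differed between UV and control skin in opposite directions in the 2 fibroblast classes. In Pi16-positive fibroblasts it was at 439 CPM in UV skin and 61.8 CPM in control skin, a log2 ratio of 2.64, from 832 and 49 counts, and 55.1% of the control counts lay in 1 barcode. In Pi16-negative fibroblasts it was at 495 CPM in UV skin and 1091 CPM in control skin, a log2 ratio of -1.13, from 679 and 290 counts. The difference between the classes was not tested, since each group is 1 library.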

How the results depend on the processing

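No log2 ratio of 1 or more in size changed sign under 15 alternatives, among 75 named genes for UV against control, 77 for UV plus vitamin D against UV and 20 for Pi16-positive against Pi16-negative fibroblasts. Ratios near 0 did: for UV plus vitamin D against UV, Ccl7 was -0.02, and 0.13 without members rich in keratinocyte markers. The size of the ratios moved more often. Values outside the counting interval of the main value numbered 196 of 1125 for UV against control and 167 of 1155 for UV plus vitamin D against UV. For Pi16-positive against Pi16-negative fibroblasts they numbered 39 of 300. The 15 alternatives and these totals include settings under which a ratio could not move. The minimum-count settings change only which genes are tested. The limit of 10% mitochondrial counts kept the same Pi16-positive members, so the ratios between libraries stayed as they were. The UV share of gated fibroblasts was 56.4% with at least 2 counts of Pi16 and 52.4% with at least 3, and the control share was 70.1% with at least 30 collagen and 5 Dcn counts. With those collagen and Dcn thresholds the share of all barcodes was 1.5002% in UV plus vitamin D, 4.37% in UV and 0.980% in control skin, and thinned to 2800 counts it was 1.86%, 4.40% and 1.31%. It was 4.26% in UV skin with at least 3 counts of Pi16, and 2.0003% in UV plus vitamin D skin without members rich in keratinocyte markers. With a pseudocount of 1 CPM, 983 genes were 2-fold apart for UV against control in place of 321, 877 for UV plus vitamin D against UV in place of 286, and 457 for UV plus vitamin D against control in place of 150; for the last, a minimum of 50 counts gave 64. The balance of higher and lower genes moved by over 10 percentage points for UV against control with at least 2 counts of Pi16 (228 and 112, against 248 and 73) or 3 (255 and 152), and for UV plus vitamin D against UV with at least 2 counts (159 and 161, against 109 and 177), thinned (71 and 184) or without the keratinocyte-rich members (69 and 209). The background of a list count moves with the setting too. For UV against control, 228 of 6813 genes were higher with at least 2 counts of Pi16, 255 of 6636 with at least 3 and 277 of 4179 thinned. For UV plus vitamin D against UV, 168 of 6765 were lower with at least 3 counts and 184 of 4216 thinned. There, 209 of 6303 were lower without the keratinocyte-rich members, and 205 of 6702 with at least 30 collagen and 5 Dcn counts. No paired analysis was possible because each group is 1 library. Depth limits low genes most in UV plus vitamin D and control skin, where 3 counts are 3.29 and 3.78 CPM.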
